A study of Homo sapiens and Mus musculus with 18 samples.

Results

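Naïve and primed human embryonic stem cells (ESCs) of the line H9 were compared by RNA-seq of poly(A) mRNA. The comparison took every gene of the human count table that had enough reads in the 4 H9 libraries, 17481 of 44910 genes, and all 4 H9 libraries of the 18 samples in the series. H9 is an established human ESC line. Naïve cells were chemically reset (cR) H9 cells grown in N2B27 medium with PXGL, which holds the MEK inhibitor PD0325901, the tankyrase inhibitor XAV939, the PKC inhibitor that gives PXGL its G, and human LIF. They were kept on irradiated mouse embryonic fibroblasts (MEFs), which were depleted before collection by successive passages on Geltrex. Primed cells were grown in StemFlex medium on Geltrex, without feeders. The ROCK inhibitor Y-27632 was used at replating. Per the study's methods, the replicates were biological and were collected within the same experimental batch, with 2 libraries of each state. State, medium, inhibitors and feeder history changed together and cannot be told apart, and each state was 1 cell line.

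Naïve pluripotency is the ground-like state of the epiblast before implantation, held in culture by blocking MEK/ERK signalling and the WNT and PKC pathways while LIF is supplied. Primed pluripotency resembles the epiblast after implantation, depends on FGF and Activin/Nodal signalling, and lies closer to the choice of germ layers. Both states keep OCT4 and SOX2, but differ in the other transcription factors, in DNA methylation, in adhesion and in metabolism.

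The libraries held 20444400 and 18774903 counted reads in naïve and 12926595 and 38771193 in primed H9 ESCs, so 3 reads, the limit that a count of 0 allows, stood for 0.0774 to 0.232 CPM (counts-per-million) of the unscaled total of 1 library. CPM values of genes and lists given here were scaled with edgeR's TMM factors and were not divided by gene length, so they compare libraries and not genes. Changes are log2 fold changes of naïve over primed ± SE from edgeR's quasi-likelihood test, positive where naïve was higher. A gene was called a DET (differentially expressed transcript) when its Benjamini-Hochberg adjusted p was under 0.05 and its log2 fold change was over 1 in size. Where 1 state had no more than a few reads, the pooled reads of its 2 libraries were set against those of the other state, with 3 reads in place of 0, as a bound or as a ratio with its exact 95% counting interval. Such intervals and floors cover counting error only. The SE was estimated from 2 libraries a state, with a biological coefficient of variation of 6.38%. Across genes, replicates of log2 CPM correlated with Pearson's r = 0.992 in naïve and 0.995 in primed H9 ESCs. Genes are not independent replicates, and this r is a description.

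The transcriptomes of the states were far apart. Of the 17481 genes, 8701 were DETs (49.8%), of which 4156 were higher in naïve (23.8%) and 4545 higher in primed H9 ESCs (26%). Which state had more DETs turned without the filter on low counts (5859 naïve-higher and 5226 primed-higher) and without the second primed library (4309 and 4121). The median log2 fold change over all tested genes was 0.014. With so wide a background, the share of a gene list called in each direction is read below beside 23.8% and 26%. Changes of over 5 on the log2 scale were reached by 912 genes in the naïve and 624 in the primed direction. Of all DETs, 916 naïve-higher genes had at most 3 reads in each primed library, and 763 primed-higher genes at most 3 in each naïve library. Such a gene passed the filter on low counts through 1 state alone and had to differ, so counts over lists rich in such genes are a description. The libraries of one state did not overlap those of the other in 15741 genes (90%).

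**Figure D1:**
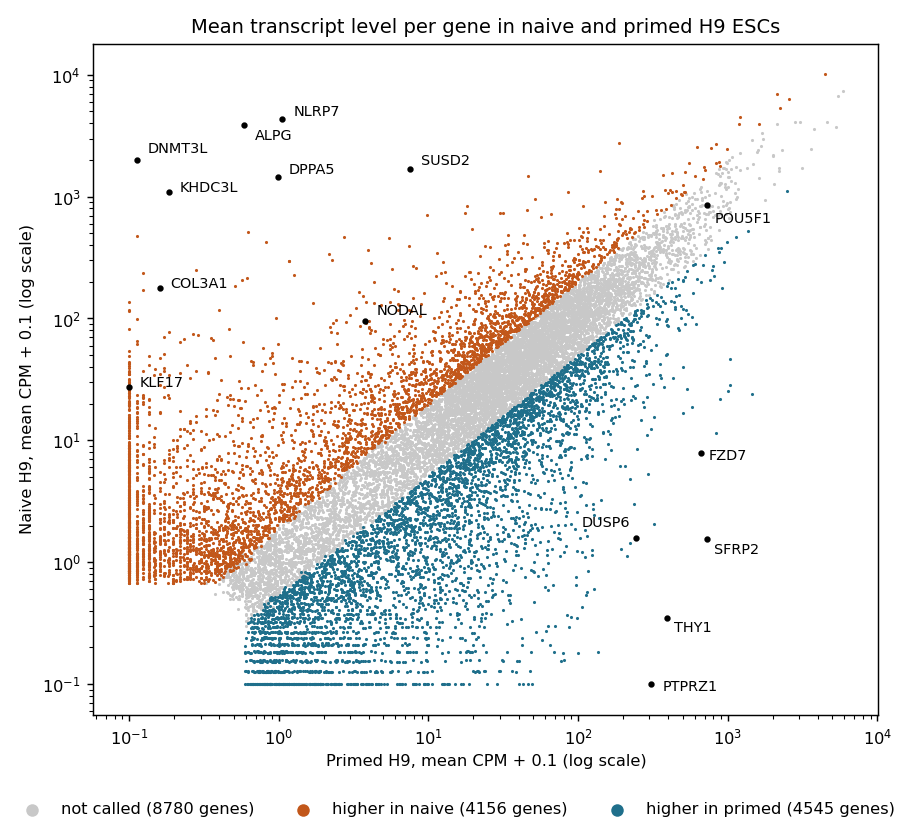
Mean level of each tested gene in naïve (vertical axis) and primed (horizontal axis) H9 ESCs, in CPM on log axes with 2 libraries a state; colour marks DETs, and 0.1 was added to each mean, and black labelled points are genes named in the text. The 4156 naïve-higher DETs lie above the diagonal and the 4545 primed-higher DETs below it.

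Mouse reads from feeders were a limit of the naïve libraries, since the reads were aligned to the human genome alone. To find genes that could take such reads, 54654 mouse transcripts were cut into windows of 100 bases at steps of 25 bases and aligned to human transcripts. Of 4067199 windows, 234824 aligned over at least 66 bases with at most 10 mismatches and gaps, and 16205 human genes took at least 1. No window aligned to 5710 of the tested genes. Among these, 34.0% were higher in naïve and 25.6% in primed H9 ESCs in the fit of all genes. "No mouse window" below marks such genes. A window shows only that a mouse read could align there, not that one did. Nor does the lack of a window show that a gene took no mouse read. The windows were aligned to transcripts with minimap2, and the study's reads to the genome with STAR.

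Of 27 markers of fibroblasts tested, 10 were higher in naïve (37%) and 8 in primed H9 ESCs (29.6%), against 23.8% and 26% of all genes. Their summed level was 2452 and 2364 CPM in naïve and 2159 and 2228 CPM in primed H9 ESCs. COL3A1, a fibrillar collagen of mesenchyme, had 3463 and 2991 reads in naïve and 1 and 2 reads in primed H9 ESCs, a ratio of 3282-fold (95% counting interval 1123 to 15920). Mouse windows aligned to COL3A1 at 19 places. DCN and LUM, proteoglycans of connective tissue, took no mouse window. DCN had 154 and 108 reads in naïve and 0 and 0 reads in primed H9 ESCs (at least 133-fold higher), and LUM had 30 and 37 reads in naïve and 0 and 0 reads in primed H9 ESCs (at least 34.1-fold higher). COL1A1, another mesenchymal collagen, was at 364 and 374 CPM in naïve and 138 and 141 CPM in primed H9 ESCs (1.41 ± 0.0701) and took 62 windows. PDGFRB, a receptor of mesenchymal cells, went the other way, at 0.685 and 1.16 CPM in naïve and 33.1 and 32 CPM in primed H9 ESCs (−5.15 ± 0.18), as did TAGLN, a smooth muscle actin-binding protein, at 3.42 and 4.39 CPM in naïve and 80.2 and 78.8 CPM in primed H9 ESCs (−4.35 ± 0.12). COL1A2 (−0.15) and POSTN (0.95) were not DETs. The part of feeder RNA in the results below was not tested beyond the counts given for genes with no mouse window.

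The promoters of genes on which the contrast of the states turned are printed here to show the sequence that precedes them. Each run is the 250 bases before the gene's start on its own strand, 5′ to 3′, from RefSeq (GRCh38.p14), and capitals mark CG dinucleotides, the sites of DNA methylation. KHDC3L and DPPA5 are neighbours on chromosome 6, ALPG encodes the germ cell alkaline phosphatase, KLF17 a naïve transcription factor, ZIC2 a primed transcription factor, SFRP2 a secreted WNT-binding protein and DUSP6 the phosphatase of ERK.
DPPA5 (chr6:73354277-73354526, minus strand): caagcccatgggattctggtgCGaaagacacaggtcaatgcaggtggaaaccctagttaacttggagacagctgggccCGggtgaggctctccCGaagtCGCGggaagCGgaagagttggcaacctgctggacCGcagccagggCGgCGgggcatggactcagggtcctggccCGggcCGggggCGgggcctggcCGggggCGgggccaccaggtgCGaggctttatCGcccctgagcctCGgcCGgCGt
KHDC3L (chr6:73362408-73362657, plus strand): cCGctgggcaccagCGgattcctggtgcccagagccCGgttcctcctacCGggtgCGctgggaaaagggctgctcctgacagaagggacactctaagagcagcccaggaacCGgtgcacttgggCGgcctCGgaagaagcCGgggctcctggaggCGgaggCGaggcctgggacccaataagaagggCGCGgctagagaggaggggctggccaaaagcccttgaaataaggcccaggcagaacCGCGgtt
ALPG (chr2:232406594-232406843, plus strand): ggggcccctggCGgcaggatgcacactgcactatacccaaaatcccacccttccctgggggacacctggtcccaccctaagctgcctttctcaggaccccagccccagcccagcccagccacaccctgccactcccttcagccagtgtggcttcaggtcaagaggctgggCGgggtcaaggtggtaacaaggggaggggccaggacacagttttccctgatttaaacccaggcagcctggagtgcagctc
KLF17 (chr1:44118571-44118820, plus strand): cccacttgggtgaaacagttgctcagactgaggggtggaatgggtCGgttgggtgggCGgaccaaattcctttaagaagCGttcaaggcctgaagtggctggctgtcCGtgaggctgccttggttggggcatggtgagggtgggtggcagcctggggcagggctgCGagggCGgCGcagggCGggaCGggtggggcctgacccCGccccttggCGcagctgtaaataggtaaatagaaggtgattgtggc
ZIC2 (chr13:99981534-99981783, plus strand): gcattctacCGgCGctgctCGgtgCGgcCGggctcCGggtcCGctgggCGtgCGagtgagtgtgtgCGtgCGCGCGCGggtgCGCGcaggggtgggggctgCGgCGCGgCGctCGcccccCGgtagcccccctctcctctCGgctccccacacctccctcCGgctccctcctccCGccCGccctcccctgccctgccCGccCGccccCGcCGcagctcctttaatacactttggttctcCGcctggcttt
SFRP2 (chr4:153789084-153789333, minus strand): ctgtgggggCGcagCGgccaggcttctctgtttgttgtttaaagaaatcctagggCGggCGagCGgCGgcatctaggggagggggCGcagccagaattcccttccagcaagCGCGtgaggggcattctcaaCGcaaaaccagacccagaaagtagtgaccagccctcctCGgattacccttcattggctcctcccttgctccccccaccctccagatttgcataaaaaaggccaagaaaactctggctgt
DUSP6 (chr12:89352502-89352751, minus strand): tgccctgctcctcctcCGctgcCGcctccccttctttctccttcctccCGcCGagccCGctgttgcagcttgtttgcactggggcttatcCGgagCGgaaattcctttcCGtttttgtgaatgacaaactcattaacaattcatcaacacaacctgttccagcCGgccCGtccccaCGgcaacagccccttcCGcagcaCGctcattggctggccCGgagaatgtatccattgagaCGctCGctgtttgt

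These windows held 19 CG dinucleotides at DPPA5, 15 at KHDC3L, 2 at ALPG, 11 at KLF17, 31 at ZIC2, 11 at SFRP2 and 16 at DUSP6. The median was 21 over the 11571 of 14432 tested protein-coding genes that matched the table, and 11 over its 27305 promoters. Each was searched on both strands for GCCNNNGGC, the core bound by TFAP2 factors, and for ATGCAAAT, the octamer bound by OCT4. The first was present at DPPA5, ALPG and KLF17, against 27.6% of the tested promoters, and the second at SFRP2 alone of these 7 promoters, against 1.35%. Such matches are letters in a window, and binding was not measured. The 7 promoters were chosen for their genes, and their matches are no share of the naïve-higher or primed-higher genes. Of the protein-coding naïve-higher and primed-higher DETs, 76.8% and 77.9% had a promoter in the table, and the rest were not searched. Among those searched, the first was present at 26.8% of naïve-higher and 27.6% of primed-higher genes. The second was present at 1.88% and 1.5%.

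The shared pluripotency factors split between the states. Of 19 core genes, 6 were DETs higher in naïve, 8 were higher in primed H9 ESCs and 5 were not called, with a median of −0.21. POU5F1 (ENSG00000204531, chromosome 6), which encodes OCT4, was at 846 and 856 CPM in naïve and 727 and 724 CPM in primed H9 ESCs. Its naïve libraries lay above its primed libraries, but the change of 0.23 ± 0.0641 (edgeR adjusted p = 0.00439) was under the fold threshold. SOX2, the partner of OCT4, was at 119 and 135 CPM in naïve and 333 and 371 CPM in primed H9 ESCs (−1.47 ± 0.0833). LIN28A, an RNA-binding repressor of let-7 microRNAs, was also lower in naïve, at 422 and 431 against 951 and 1024 CPM (−1.21 ± 0.0687), and so was the de novo DNA methyltransferase DNMT3B, at 538 and 503 against 1359 and 1381 CPM (−1.4 ± 0.0677). DPPA4 and L1TD1 were further primed-higher DETs of the list. NANOG, which protects the epiblast identity, was in contrast 4.14-fold higher in naïve H9 ESCs, at 77 and 77.9 CPM in naïve and 18.2 and 19 CPM in primed H9 ESCs (2.05 ± 0.0878). PRDM14, a repressor of differentiation genes, was at 265 and 241 against 45.4 and 43 CPM (2.52 ± 0.0826), and ZFP42, known as REX1, at 417 and 414 against 70.1 and 73.5 CPM (2.53 ± 0.074). UTF1, a chromatin-associated factor, reached 169.8 and 275 against 8.94 and 13.3 CPM (4.25 ± 0.21), and its naïve libraries differed from each other more than those of NANOG. GDF3, a TGFβ family ligand, was at 295 and 246 against 8.16 and 7.48 CPM (5.13 ± 0.11). DPPA2, the partner of DPPA4, was likewise naïve-higher, at 46.5 and 41 against 7.66 and 7.46 CPM (2.54 ± 0.11). The libraries of one state did not overlap those of the other in any of these named DETs, nor in 90% of all tested genes.

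The naïve transcription factors were higher in naïve H9 ESCs in 13 of the 14 tested of 16. KLF4, a Krüppel-like factor of naïve cells, was at 318 and 362 CPM in naïve and 1.63 and 2.47 CPM in primed H9 ESCs (7.25 ± 0.14), and KLF5 at 293 and 309 against 1.56 and 2.79 CPM (6.95 ± 0.14). KLF17, which in human embryos is a factor of the early epiblast, had 537 and 460 reads in naïve and 0 and 0 reads in primed H9 ESCs, at least 507-fold higher. TFCP2L1, a LIF-responsive factor, was at 167 and 158 against 8.8 and 9.57 CPM (4.13 ± 0.0946). TFAP2C, an AP-2 factor that opens naïve enhancers, was at 162 and 175 against 5.75 and 6.64 CPM (4.73 ± 0.10), and the T-box factor TBX3 was at 70.6 and 85 against 0.071 and 0.0969 CPM (9.67 ± 0.22). All 4 libraries of each of these genes fell into separate ranges by state, as did those of 90% of all tested genes. ESRRB, a naïve factor of mouse cells, was the exception. Its values of 2.32 and 2.77 against 2.13 and 2.33 CPM gave 0.17 ± 0.23 (edgeR adjusted p = 0.516), and it was not a DET.

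Naïve surface and effector genes included several of the largest changes. Of 21 tested, 16 were DETs higher in naïve and 3 in primed H9 ESCs. Among the 13 with no mouse window, 11 were naïve-higher. ALPG (ENSG00000163286, chromosome 2, 232406844 to 232410714) was at 3664 and 4069 CPM in naïve and 0.568 and 0.412 CPM in primed H9 ESCs (13.04 ± 0.14), the largest naïve-higher change of genes that had over 3 reads in at least 1 primed library. ALPP, the placental alkaline phosphatase beside it (chromosome 2, 232378724 to 232382889), had 3108 and 3055 reads in naïve and 0 and 2 reads in primed H9 ESCs, a ratio of 4701-fold (95% counting interval 1301 to 38830). ALPG and ALPP are near-identical copies, so reads that align to both were dropped and their levels are uncertain. SUSD2, a surface protein used to sort naïve cells, was at 1591 and 1782 CPM in naïve and 8.02 and 6.93 CPM in primed H9 ESCs (7.85 ± 0.11). DPPA3, a maternal factor known as STELLA that keeps DNA from being methylated, was at 441 and 414 against 0.568 and 0.872 CPM (9.07 ± 0.13). DPPA5, an RNA-binding protein of early embryos, was at 1409 and 1476 CPM in naïve and 1.06 and 0.702 CPM in primed H9 ESCs, 1792-fold higher (10.81 ± 0.13). DNMT3L, the cofactor of the de novo methyltransferases without catalytic activity of its own, had 36253 and 35642 reads in naïve and 0 and 1 reads in primed H9 ESCs, a ratio of 109700-fold (95% counting interval 19690 to 4332000). OLAH, a thioesterase of fatty acid synthesis, had 2686 and 2305 reads in naïve and 0 and 0 reads in primed H9 ESCs (at least 2538-fold higher). For each of these genes the naïve libraries lay close together and the primed libraries far below them.

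**Figure D2:**
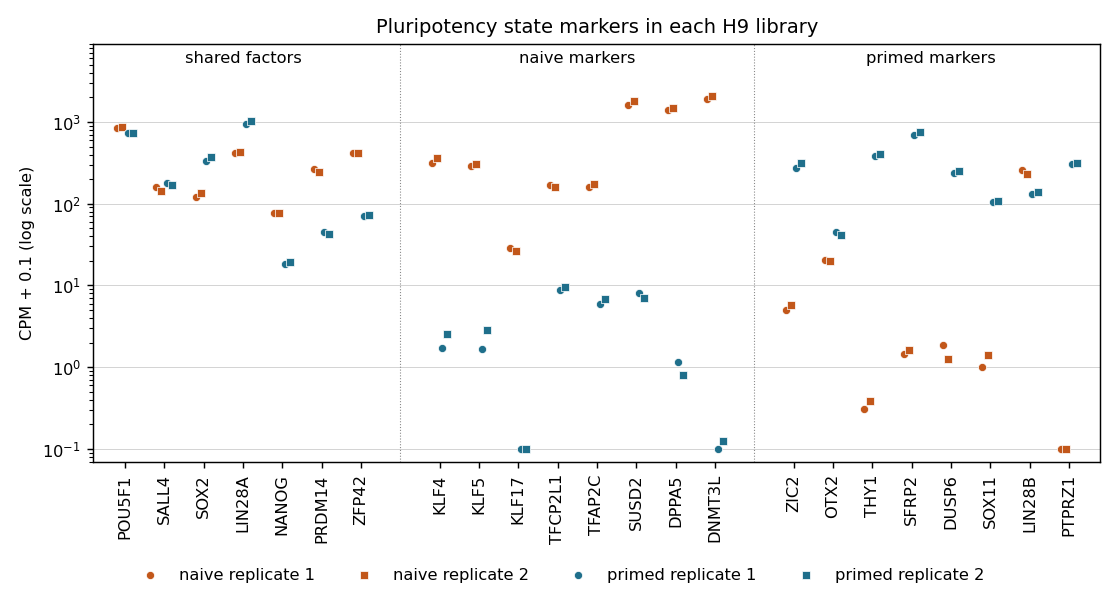
Level of named marker genes in each H9 library, as CPM + 0.1 on a log axis; each point is 1 library, coloured by state and shaped by replicate, with 2 points a state. POU5F1 sits at like levels in both states, while KLF4, DPPA5 and SUSD2 lie high in naïve and ZIC2, SFRP2 and PTPRZ1 high in primed libraries.

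The other genes with the largest naïve-higher changes were NLRP7, KHDC3L, FAM151A, RRAD, H19 and BIN2, beside TBX3, DPPA3 and DPPA5. KHDC3L and NLRP7 are maternal genes whose loss is known from recurrent hydatidiform mole. KHDC3L was at 1049 and 1125 CPM in naïve and 0 and 0.17 CPM in primed H9 ESCs (13.01 ± 0.18), from 19906 and 19472 against 0 and 7 reads. NLRP7 was at 4505 and 4131 CPM in naïve and 1.06 and 0.848 CPM in primed H9 ESCs (12.21 ± 0.13) and was among the 10 genes of the highest mean CPM in naïve H9 ESCs. FAM151A was at 504 and 515 against 0.78 and 0.266 CPM (10.29 ± 0.17), RRAD, a small GTPase of the RAS superfamily, at 226 and 274 against 0.142 and 0.218 CPM (10.26 ± 0.19), and BIN2, a BAR domain protein, at 39.5 and 37.8 against 0 and 0.0969 CPM (8.96 ± 0.25).

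Maternal-effect genes were followed as a list of 17, of which 11 passed the filter on low counts. Of these, 8 were higher in naïve and 1 in primed H9 ESCs, and several passed through their naïve reads alone, so they had to differ. On chromosome 6, the genes KHDC1L, KHDC1, DPPA5, KHDC3L and OOEP lie between positions 73223544 and 73395133. OOEP, a subunit of the subcortical maternal complex, was at 35.6 and 36.9 against 0.284 and 0.194 CPM (7.35 ± 0.20). KHDC1, within the same stretch, was at 7.9 and 8.2 against 4.75 and 6.49 CPM (0.46 ± 0.17) and was not a DET. NLRP2, also of the NLRP group, was already present in primed H9 ESCs, at 2883 and 2631 CPM in naïve and 188 and 188 CPM in primed H9 ESCs (3.87 ± 0.0762). The spans of NLRP7 and NLRP2 overlap on opposite strands of chromosome 19, and reads from the shared stretch could not be told apart without strand. TLE6, another subunit of the subcortical maternal complex, was low in both states and primed-higher, at 0.527 and 0.404 against 2.34 and 1.16 CPM (−1.72 ± 0.45).

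Genes of the cleavage stages, which in the embryo mark the activation of its own genome, were detected in naïve and nearly absent from primed H9 ESCs. Of 25 listed genes, 24 passed the filter, all but SLC34A2 and CCNA1 through their naïve reads alone, so these had to be naïve-higher and their number is a description. Their summed level was 1267 and 1282 CPM in naïve and 6.74 and 6.76 CPM in primed H9 ESCs. ZSCAN4, a telomere-associated factor of cleavage cells, had 753 and 596 reads in naïve and 0 and 0 reads in primed H9 ESCs (at least 686-fold higher). LEUTX, a paired-like homeobox activator, had 226 and 224 reads in naïve and 0 and 1 reads in primed H9 ESCs, a ratio of 687-fold (95% counting interval 123 to 27180). DUXA had 47 and 48 reads in naïve and 0 and 0 reads in primed H9 ESCs (at least 48.3-fold higher), and TPRX1, a homeobox factor of the same class, had 395 and 432 reads in naïve and 0 and 0 reads in primed H9 ESCs (at least 421-fold higher). KDM4E, a histone demethylase, had 580 and 513 reads in naïve and 0 and 0 reads in primed H9 ESCs (at least 556-fold higher), and the histone variant gene H3Y1 had 1961 and 2214 reads in naïve and 0 and 0 reads in primed H9 ESCs (at least 2123-fold higher). Reads of each were found in both naïve libraries at like numbers. Of the 24 genes, 22 took no mouse window. In bulk RNA, a few cells with much of a transcript and many cells with little of it cannot be told apart.

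Of 22 genes of the PRAME family, which encode leucine-rich repeat proteins of germ cells and early embryos, 15 passed the filter and took no mouse window. Again they passed through their naïve reads. PRAMEF12 had 1213 and 1140 reads in naïve and 0 and 1 reads in primed H9 ESCs, a ratio of 3590-fold (95% counting interval 644 to 141800). PRAME family genes, H3Y1 and other multicopy genes share sequence among copies, and their levels are uncertain for that reason.

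Primed epiblast genes were mostly higher in primed H9 ESCs. Of 29 tested of 30, 24 were higher in primed and 1, FST, in naïve H9 ESCs, against 26% and 23.8% of all genes. THY1 (ENSG00000154096, chromosome 11, 119415476 to 119424985), the surface protein CD90, was at 0.211 and 0.289 CPM in naïve and 386 and 402 CPM in primed H9 ESCs (−10.6 ± 0.15), the largest primed-higher change of genes that had over 3 reads in at least 1 naïve library. SFRP2 (chromosome 4, 153780591 to 153789083), a secreted modulator of WNT, was at 1.37 and 1.5 CPM in naïve and 690.2 and 753 CPM in primed H9 ESCs, 502-fold higher in primed (−8.97 ± 0.12). PTPRZ1, a receptor tyrosine phosphatase of neural progenitors, had 0 and 0 reads in naïve and 4305 and 12891 reads in primed H9 ESCs (at least 3757-fold higher in primed). ZIC2 (chromosome 13, 99981784 to 99986765), a zinc-finger factor of primed enhancers, was at 4.85 and 5.6 CPM in naïve and 277 and 314 CPM in primed H9 ESCs, 56.7-fold higher in primed (−5.82 ± 0.11). SOX11, a SoxC factor, was at 0.896 and 1.33 against 104 and 108 CPM (−6.58 ± 0.14), and FZD7, a WNT receptor, at 8.43 and 7.16 against 643 and 689.6 CPM, 85.2-fold higher in primed (−6.41 ± 0.10). No naïve library reached a primed library for any of these, where 90% of all tested genes had no overlap between the states. A smaller change was measured for OTX2, a head and epiblast homeobox factor, at 20.3 and 19.8 against 44.5 and 41 CPM (−1.09 ± 0.0953). LIN28B, the paralog of LIN28A, was at 262 and 228 against 132 and 139.7 CPM (0.85) and VIM, an intermediate filament protein, changed by −0.02, and neither was a DET. FST, an antagonist of Activin, was naïve-higher (1.94). HEPH, a ferroxidase (−8.78), PIEZO2, a mechanosensitive channel (−8.48), LCK, a SRC family kinase (−8.31), CYYR1 (−8.64), TMEM132B (−8.6), SPATC1L (−8.48) and IGLON5 (−8.31) completed the named largest primed-higher changes, with a lncRNA known only as ENSG00000289533 (−8.47).

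Targets of MEK/ERK signalling were lower in the cells grown with the MEK inhibitor. Of 21 listed genes, 16 were higher in primed and 1, FOSL1, in naïve H9 ESCs, and their median was −2.40. DUSP6 was at 1.79 and 1.16 CPM in naïve and 237 and 249 CPM in primed H9 ESCs, 163-fold higher in primed (−7.35 ± 0.14). SPRY4, a feedback inhibitor of receptor tyrosine kinases, was at 2.48 and 3.35 against 239 and 235 CPM (−6.35 ± 0.12). Among the ETS factors that ERK induces, ETV4 was at 37.4 and 37.3 against 195 and 199.6 CPM (−2.4 ± 0.0785) and ETV5 at 2.05 and 1.68 against 66.2 and 64.9 CPM (−5.12 ± 0.13). EGR1, an immediate early factor, was at 3.58 and 3.7 against 72.7 and 87.5 CPM (−4.47 ± 0.13). The states did not overlap for any of these, nor for 90% of all tested genes. FOSL1, an AP-1 subunit, changed by 1.71 in the other direction.

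In the FGF pathway, 5 of 15 genes were higher in naïve (33.3%) and 7 in primed H9 ESCs (46.7%), against 23.8% and 26% of all genes. FGF2, the ligand of primed culture, was at 26.8 and 31.1 against 77.5 and 83.2 CPM (−1.48 ± 0.094). FGF4, the ligand of the early epiblast, was at 296 and 293 against 0.71 and 1.43 CPM (7.89 ± 0.14), in the opposite direction. The receptors also parted, with FGFR1 at 90.3 and 90.6 against 495 and 547 CPM (−2.53 ± 0.0775) and FGFR3 at 365 and 417 against 22.8 and 24.7 CPM (4.03 ± 0.0941). FGFR4 was not a DET (−0.49).

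WNT targets were listed because XAV939 blocks the pathway, and 14 of 19 passed the filter. Of these, 9 were higher in naïve and 3 in primed H9 ESCs, with a median of 1.30. AXIN2, a negative regulator within the destruction complex, was at 27.1 and 31.5 against 13.8 and 12.9 CPM (1.14 ± 0.11). SP5, a repressor downstream of β-catenin, was low in both states, at 2.27 and 3.29 against 0.284 and 0.145 CPM (3.88 ± 0.42). RNF43, which removes WNT receptors, changed by 1.78. NKD1, another inhibitor of the pathway, changed by −1.53. CDX1, a caudal homeobox factor, had 293 and 316 reads in naïve and 0 and 3 reads in primed H9 ESCs, a ratio of 309.7-fold (95% counting interval 106 to 1506). The list members did not all go one way.

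Of 17 genes of the LIF pathway, 9 were higher in naïve and 1, the receptor gene LIFR, in primed H9 ESCs. LIFR was at 9.75 and 6.99 against 27.7 and 28.3 CPM (−1.74 ± 0.14) and IL6ST, which encodes the shared receptor chain gp130, at 119 and 112 against 6.53 and 8.48 CPM (3.89 ± 0.11). The transducer STAT3 (−0.66) and its feedback inhibitor SOCS3 (−0.70) were not DETs. JUNB, an AP-1 subunit, was at 48.1 and 64.3 against 3.19 and 3.78 CPM (3.96 ± 0.16).

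Nodal signalling is used by both states. Of 20 genes, 6 were higher in naïve (30%) and 3 in primed H9 ESCs (15%), against 23.8% and 26% of all genes. NODAL was at 95.6 and 96.7 against 4.12 and 3.27 CPM (4.77 ± 0.12) and its inhibitor LEFTY2 at 58.1 and 65.9 against 5.18 and 4.53 CPM (3.71 ± 0.12). Neither overlapped between the states, which held for 90% of all tested genes. LEFTY1 (−0.52) and the co-receptor TDGF1 (−0.15) were not DETs. In the family of other TGFβ and BMP genes, 6 of 23 were higher in naïve (26.1%) and 7 in primed H9 ESCs (30.4%). Both shares were near those of all genes. BMP4 (1.82) and its target ID1 (1.14) were naïve-higher. ID3, a helix-loop-helix inhibitor usually induced with ID1, was primed-higher, at 6.27 and 5.95 against 183 and 196 CPM (−4.95 ± 0.10).

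**Figure D3:**
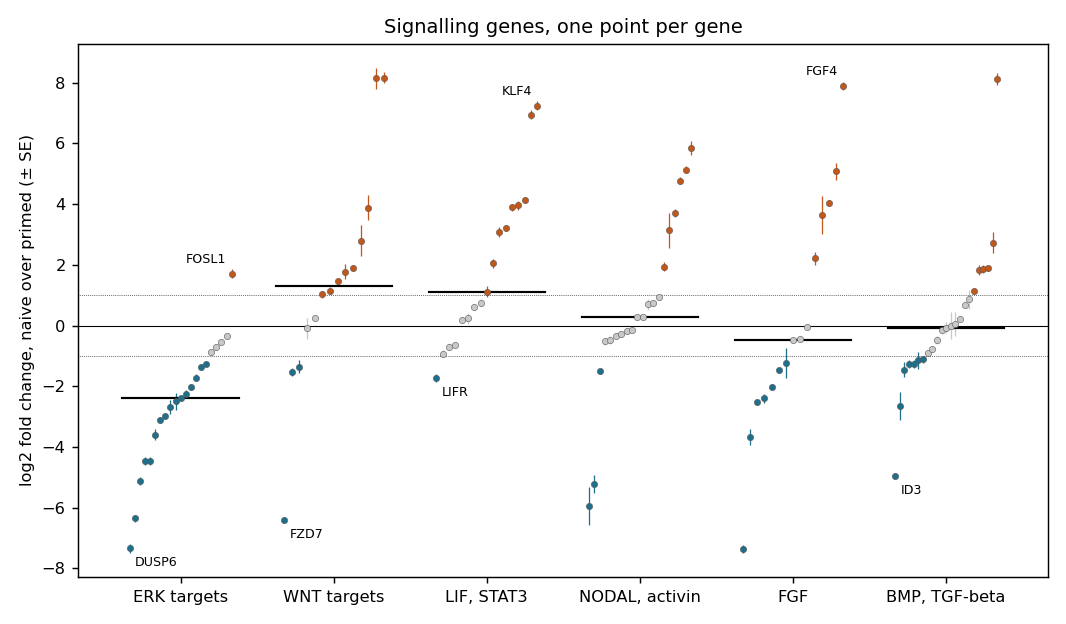
Log2 fold change (naïve over primed) of signalling genes, grouped by pathway; points are edgeR estimates, bars 1 SE from 2 libraries a state, thick horizontal lines pathway medians, dotted lines a log2 fold change of 1 in either direction, and grey points genes that were not DETs. Among the ERK targets, 16 of 21 genes lie at the primed side, while the FGF receptors FGFR1 and FGFR3 lie at opposite sides.

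Of 17 DNA methylation genes, 5 were higher in naïve (29.4%, near the 23.8% of all genes). In primed H9 ESCs, 2 were higher (11.8%, below the 26% of all genes). TET2, a dioxygenase that oxidizes methylated cytosine, was at 55.7 and 45.2 CPM in naïve and 4.12 and 5.13 CPM in primed H9 ESCs (3.39 ± 0.14), and MBD3, a NuRD subunit, at 318 and 404 against 59.5 and 66.3 CPM (2.51 ± 0.11). The maintenance methyltransferase DNMT1 was at 164 and 169.7 against 324 and 323 CPM (−0.95 ± 0.0695), just under the fold threshold. Its recruiter UHRF1 (−0.05, edgeR adjusted p = 0.57), the de novo enzyme DNMT3A (0.30) and TET1 (0.82) were not DETs. Of 13 Polycomb genes, 2 were higher in each state (15.4%, below both shares of all genes). JARID2, which guides PRC2, was at 125 and 122 against 444 and 446 CPM (−1.85 ± 0.0702), and EPOP, which also binds PRC2, at 28.2 and 28.7 against 6.74 and 8.57 CPM (1.85 ± 0.13). The catalytic subunit EZH2 (0.19) and its partners EED (−0.05) and SUZ12 (0.63) were not DETs.

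Imprinted genes, which are read from 1 parental copy in most tissues, went both ways. Of 31 tested, 13 were higher in naïve (41.9%, against 23.8% of all genes) and 8 in primed H9 ESCs (25.8%, near the 26% of all genes). On chromosome 11, H19 was at 196 and 237 against 0.78 and 0.242 CPM (9.12 ± 0.21) and CDKN1C, an inhibitor of cyclin-dependent kinases, at 109.9 and 149 against 14.5 and 16 CPM (3.07 ± 0.13). IGF2 (4.86), PHLDA2 (4.52), SLC22A18 (2.13) and KCNQ1OT1 (1.31) of the list were naïve-higher as well, and other genes of that region were not in the list. Among those outside the list, KCNQ1, named after its values were seen, went the other way. It had 2 pooled reads in naïve and 277 in primed H9 ESCs, 90.8-fold higher in primed (95% counting interval 24.9 to 753). On chromosome 14, MEG3 had 4499 and 4108 reads in naïve and 0 and 2 reads in primed H9 ESCs, a ratio of 6565-fold (95% counting interval 1817 to 54220). MEG8 had 815 and 735 reads in naïve and 0 and 0 reads in primed H9 ESCs (at least 788-fold higher), and DLK1, a Notch ligand homologue, changed by 4.36. PEG3, a zinc-finger gene on chromosome 19, had 381 and 271 reads in naïve and 0 and 0 reads in primed H9 ESCs (at least 332-fold higher). Primed-higher members lay on chromosomes 7, 15 and 20, but MKRN3 on chromosome 15, named after its values were seen, had 75 and 72 reads in naïve and 0 and 0 reads in primed H9 ESCs. PEG10, a gene derived from a retrotransposon, was at 111 and 98.9 against 284 and 289 CPM (−1.45 ± 0.0777), its neighbour SGCE changed by −1.31, MEST by −1.68 and SNRPN by −1.7. Directions were not tested by locus, and which parental copy was read was not measured.

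Markers of other early lineages were examined, since cells of trophectoderm or hypoblast could be present in a naïve culture. Of 27 genes of trophectoderm or amnion tested, 24 were higher in naïve and 1, GABRP, in primed H9 ESCs. Several passed the filter through their naïve reads alone. Their summed level was 3334 and 4081 CPM in naïve and 922.7 and 962.2 CPM in primed H9 ESCs. GATA2 was at 169 and 202 against 0.213 and 0.606 CPM (8.52 ± 0.18) and GATA3 at 110.2 and 125 against 0.426 and 0.17 CPM (8.93 ± 0.19). CDX2, which specifies trophectoderm, had 296 and 301 reads in naïve and 0 and 3 reads in primed H9 ESCs, a ratio of 304-fold (95% counting interval 103 to 1476). NR2F2 had 411 and 467 reads in naïve and 0 and 0 reads in primed H9 ESCs (at least 447-fold higher), and VGLL1, a TEAD cofactor, had 306 and 250 reads in naïve and 0 and 0 reads in primed H9 ESCs (at least 283-fold higher). CGA, the alpha chain of chorionic gonadotropin, had 6409 and 10455 reads in naïve and 0 and 1 reads in primed H9 ESCs, a ratio of 25730-fold (95% counting interval 4617 to 1016000). Its naïve libraries were at 338 and 604 against 0 and 0.0242 CPM, so its replicates differed from each other more than those of GATA2 or GATA3. The keratin KRT7 was less changed, at 26.1 and 25.2 against 10.5 and 10.6 CPM (1.28 ± 0.11).

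Of 16 genes of hypoblast or endoderm tested, 8 were higher in naïve and 6 in primed H9 ESCs. GATA6 had 633 and 783 reads in naïve and 0 and 0 reads in primed H9 ESCs (at least 720.1-fold higher) and HNF4A had 460 and 418 reads in naïve and 0 and 0 reads in primed H9 ESCs (at least 447-fold higher). SOX17 had 87 and 107 reads in naïve and 1 and 0 reads in primed H9 ESCs. PDGFRA was low in both states, at 1.9 and 2.54 against 1.21 and 0.751 CPM (1.31 ± 0.32). Its change fell under the fold threshold without the second primed library (0.84). FOXA2 was not a DET in the fit of all 4 libraries (0.39). The 6 primed-higher members were OTX2, also a gene of the primed list, and 5 named after their values were seen, which were the BMP and Nodal antagonist CER1 (−5.95), the WNT antagonist FRZB (−3.9), and the basement membrane genes NID2 (−1.2), COL4A1 (−1.68) and COL4A2 (−1.49). APOE, a lipid carrier, was at 2221 and 3137 against 754 and 903 CPM (1.69 ± 0.13) and set much of the list's summed level of 2656 and 3569 against 1245 and 1411 CPM. Neural genes were at a summed 121.1 and 138.9 CPM in naïve and 440.8 and 465.4 CPM in primed H9 ESCs, with 6 of 14 higher in naïve and 5 in primed. Whether these reads came from naïve cells or from a few cells of another type was not tested.

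**Figure D4:**
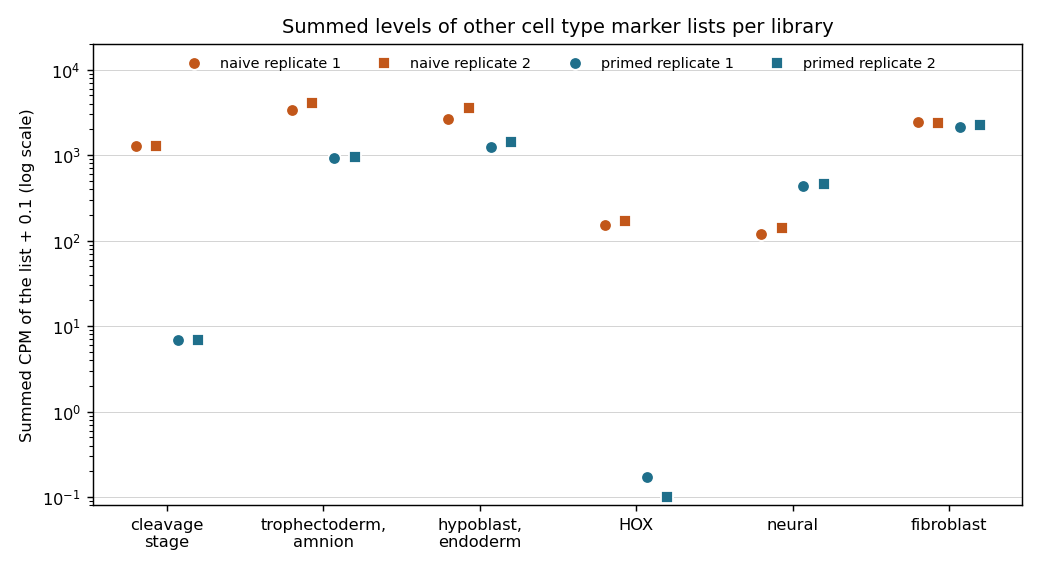
Summed level of marker lists in each H9 library, as CPM + 0.1 on a log axis; each point is 1 library, with 2 a state. The sums of the trophectoderm and amnion list are 3334 and 4081 in naïve and 922.7 and 962.2 in primed libraries, and the fibroblast sums lie between 2159 and 2452 in all 4 libraries.

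HOX genes, the positional genes of the body axis, had reads in the naïve libraries that primed libraries lacked. Of 39, 21 passed the filter, all through naïve reads. As a share of all counted reads, the 39 genes summed to 145.2 and 163.6 CPM in naïve and 0.0774 and 0.0516 CPM in primed H9 ESCs. HOXB2 had 745 and 774 reads in naïve and 0 and 0 reads in primed H9 ESCs (at least 773-fold higher), and HOXB3 had 443 and 548 reads in naïve and 0 and 0 reads in primed H9 ESCs. Of the 21 genes, 20 took mouse windows. The exception was HOXD13, with 409 and 405 reads in naïve and 0 and 0 reads in primed H9 ESCs (at least 414-fold higher). The part of feeder reads in the HOX counts was not tested. COL3A1, a marker of the fibroblast list, was also naïve-higher, at 3463 and 2991 against 1 and 2 reads. Of the 27 fibroblast markers tested, 10 were naïve-higher and 8 primed-higher, the latter with PDGFRB and TAGLN.

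Mitochondrially encoded mRNAs made up more of the naïve libraries. Reads of mitochondrial genes were 5.47% and 4.93% of naïve and 3.01% and 2.68% of primed reads. Of 13 protein-coding genes, 9 were higher in naïve and none in primed H9 ESCs, with a median of 1.28. In edgeR none of the 13 had a negative change at any p, and DESeq2 called none primed-higher. MT-ND1, of complex I, was at 4735 and 4335 CPM in naïve and 1325 and 1088 CPM in primed H9 ESCs (1.91 ± 0.0882), MT-CYB, of complex III, changed by 1.28, and MT-CO1, of complex IV, was at 10646 and 9479 against 4683 and 4301 CPM (1.16 ± 0.0731), which became 0.99 and lost its call when the fit was limited to genes with no mouse window. MT-ATP6, of the ATP synthase, changed by 0.79 and was not a DET.

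Of 77 nuclear genes of oxidative phosphorylation, 29 were higher in naïve and none in primed H9 ESCs, where 26% of all genes were primed-higher. In edgeR, 2 of the 77 had a negative change at an unadjusted p under 0.05, and DESeq2 called none primed-higher. The median of the list was 0.88. NDUFAB1, a complex I subunit and acyl carrier, was at 466 and 535 against 80.5 and 88.7 CPM (2.56 ± 0.0869), and COX4I1, of complex IV, at 763 and 769.9 against 299 and 282 CPM (1.4 ± 0.0684). NDUFV1 (2.23), NDUFA1 (2.06) and UQCRH (2.03) were among the largest changes. NDUFS1 (0.14), UQCRC1 (0.73) and ATP5F1A (0.17) were not DETs. Mitochondrial ribosomal protein genes were naïve-higher in 19 of 77 (24.7%) and primed-higher in 1 (1.3%). Cytosolic ones were naïve-higher in 13 of 81 (16%) and primed-higher in 1 (1.23%). Over all genes the shares were 23.8% and 26%, so only the primed-higher shares stood well apart from them. Among 18 genes of the citric acid cycle, 5 were naïve-higher (27.8%) and 2 primed-higher (11.1%). The cycle enzyme IDH2 was at 21 and 20.9 against 111 and 115 CPM (−2.44 ± 0.0855). Both SUCLG1 and SUCLG2 encode subunits of succinyl-CoA ligase, and they changed by 1.7 and −2.64.

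Glycolytic genes were called in both directions, at shares near or below those of all genes, 23.8% and 26%. Of 27, 6 were higher in naïve (22.2%) and 5 in primed H9 ESCs (18.5%), with a median of −0.01. Isoforms of an enzyme went opposite ways. Hexokinase HK1 was at 163 and 159.5 against 596 and 573 CPM (−1.86 ± 0.0699) and HK2 at 269 and 253 against 126 and 125 CPM (1.06 ± 0.0726). The phosphofructokinases PFKL and PFKM changed by 2.2 and −2.58, and PFKP by 0.65, which was not a DET. PDK1, which holds back pyruvate entry to mitochondria, changed by −2.75, and the lactate exporter SLC16A3 by 3.5. Lactate dehydrogenase LDHA was not a DET (−0.41). In cholesterol synthesis and uptake, 1 of 24 was naïve-higher (4.17%, against 23.8% of all genes) and 7 primed-higher (29.2%, near the 26% of all genes). HMGCS1, an early enzyme of the pathway, changed by −1.56.

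Nucleotide synthesis had 1 of 34 genes higher in naïve (2.94%) and 6 in primed H9 ESCs (17.6%). Both shares were below those of all genes, 23.8% and 26%. The 6 included CTPS2 (−3.54) and NME4 (−2.47). Of 28 amino acid transporters, 9 were higher in each state (32.1%, against 23.8% and 26% of all genes). SLC1A1, a glutamate carrier, had 1 and 1 reads in naïve and 564 and 1654 reads in primed H9 ESCs, and SLC38A4 had 0 and 0 reads in naïve and 261 and 776 reads in primed H9 ESCs (at least 227-fold higher in primed). SLC7A7 (3.82) was naïve-higher, and SLC38A5 (−6.82) and SLC38A2 (−2.06) were primed-higher. SLC7A5 (0.82) and SLC7A11 (0.87) were not DETs.

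Antigen presentation was primed-higher in 9 of 15 genes and naïve-higher in 1. The list's summed level was 1949 and 1982 CPM in naïve and 1785 and 1801 CPM in primed H9 ESCs, most of it from CALR, a chaperone of the endoplasmic reticulum named after its values were seen, at 1667 and 1675 against 1063 and 1035 CPM (0.67, not a DET). The class I heavy chain HLA-C was at 52.4 and 57.4 against 296 and 315 CPM (−2.48 ± 0.0811). HLA-F, a nonclassical class I gene, was the exception, at 44.1 and 51.8 against 3.41 and 3.61 CPM (3.75 ± 0.13). The immunoproteasome subunit PSMB8 (−4.28) and the peptide-trimming enzyme ERAP1 (−4.35) were primed-higher, while B2M (−0.75) and TAP1 (−0.72) were not DETs. The classical genes are polymorphic and alike in sequence, and their counts can depend on the reference allele.

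Adhesion and matrix genes differed by member. CDH1, the epithelial cadherin, was at 491 and 418 against 234 and 234 CPM (0.96 ± 0.0809), under the fold threshold, and CDH2, the neural cadherin, at 1.42 and 1.33 against 54.2 and 57.7 CPM (−5.34 ± 0.14). EPCAM was not a DET (−0.62). Of 28 laminin and integrin genes, 5 were higher in naïve (17.9%) and 12 in primed H9 ESCs (42.9%), against 23.8% and 26% of all genes. LAMC1 (1.38) and LAMB3 (4.33) were naïve-higher, and the laminin receptor subunits ITGA6 (−1.48) and ITGB1 (−1.25) were primed-higher. Of 38 collagen genes, 8 were higher in naïve (21.1%) and 19 in primed (50%), the latter with COL2A1 (−4.85) and COL4A6 (3 and 3 against 719 and 2234 reads).

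In families of cell guidance, the primed-higher shares were above the 26% of all genes. Of 29 semaphorins and plexins, 16 were primed-higher (55.2%) and 4 naïve-higher (13.8%), with a median of −1.08. Of 21 ephrins and their receptors, 11 were primed-higher (52.4%) and 4 naïve-higher (19%), with a median of −1.33. Over all genes, 23.8% were naïve-higher. SEMA3A, a secreted repellent, changed by −4.96, SEMA6B by −3.88, and the receptors EPHA1 and EPHB1 by −4.18 and −4.75. Clustered protocadherins, whose copies share reads, were primed-higher in 18 of 39 (46.2%) and naïve-higher in 10 (25.6%, near the 23.8% of all genes). Claudins, of tight junctions, were primed-higher in 6 of 13 (46.2%) and naïve-higher in 1 (7.69%). Of 7 keratins tested, 5 were naïve-higher, among them KRT18 (1.12). It fell under the fold threshold without the second naïve library (0.996) and in the fit limited to genes with no mouse window (0.94).

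**Figure D5:**
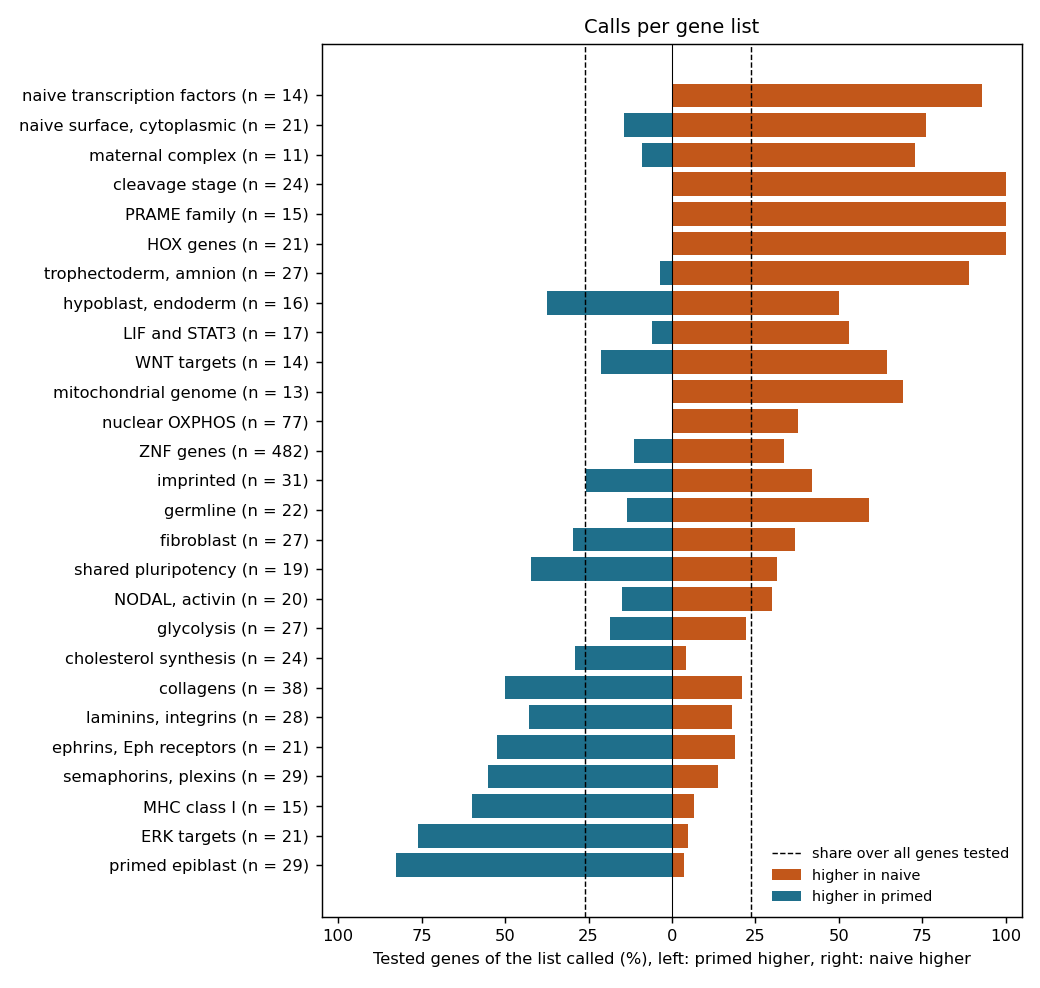
Share of the tested genes of each list that were DETs higher in naïve (right) and higher in primed H9 ESCs (left), in percent; the vertical lines give the shares over all 17481 genes, 23.8% and 26%. Oxidative phosphorylation shows no primed-higher gene and ERK targets show 16 of 21 at the primed side.

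Zinc-finger (ZNF) genes, many of which encode repressors of transposable elements, were naïve-higher in 162 and primed-higher in 55 of 482. They differed by location. Of 237 on chromosome 19, 116 were naïve-higher and 5 primed-higher (median 0.98), and of 245 elsewhere, 46 and 50 (median −0.04). Other protein-coding genes of chromosome 19 were naïve-higher in 233 of 880 and primed-higher in 172 (median 0.35). ZNF729 had 2480 and 1816 reads in naïve and 0 and 0 reads in primed H9 ESCs (at least 2185-fold higher) and ZNF257 had 1027 and 930 reads in naïve and 0 and 0 reads in primed H9 ESCs (at least 995-fold higher). Zinc-finger genes of this kind are alike in sequence, and reads shared between copies were dropped. Over all classes of gene, chromosome 19 had 33.9% naïve-higher and 15.9% primed-higher of 1292 genes, and the X chromosome 21.5% and 40.8% of 659.

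Processed pseudogenes, which are reverse-transcribed copies of mRNAs, were naïve-higher in 566 of 805 and primed-higher in 39. Many of them passed the filter through their naïve reads alone. Among the 493 with no mouse window, 362 and 25 were called. As a share of all counted reads, the processed pseudogenes of the table summed to 2832 and 2810 CPM in naïve and 1282 and 1257 CPM in primed H9 ESCs. Reads of a pseudogene cannot always be told from those of its parent gene. Protein-coding genes were naïve-higher in 2913 and primed-higher in 3756 of 14432, and lncRNAs in 572 and 698 of 2004.

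Genes of the germline, tested in 22 of 35, were naïve-higher in 13 and primed-higher in 3. MAEL, of the piRNA pathway, changed by 8.49. SYCP3, of the synaptonemal complex, had 711 and 641 reads in naïve and 1 and 3 reads in primed H9 ESCs, and HORMAD1, a meiotic chromosome protein, had 691 and 587 reads in naïve and 0 and 0 reads in primed H9 ESCs (at least 649.9-fold higher). DAZL, an RNA-binding protein of germ cells, had 0 and 0 reads in naïve and 31 and 111 reads in primed H9 ESCs (at least 31-fold higher in primed), and TEX15 (−4.45) and PIWIL2 (−1.52) were primed-higher.

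Cell cycle genes were naïve-higher in 11 (45.8%) and primed-higher in 5 (20.8%) of 24, against 23.8% and 26% of all genes. CCND2, a D-type cyclin, was at 4.43 and 5.26 against 94.7 and 88.2 CPM (−4.24 ± 0.11), while CCND1 was not a DET (−0.35) and CCNE1 changed by 1.08. CDKN1A, the inhibitor p21, was at 245 and 255 CPM in naïve and 28.2 and 25.5 CPM in primed H9 ESCs, 9.39-fold higher in naïve (3.23 ± 0.0853). The naïve and primed libraries did not overlap for CCND2 or CDKN1A, nor for 90% of all tested genes.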

How the data were processed

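Poly(A) mRNA of H9 ESCs was sequenced with a kit that does not mark strand. The authors trimmed reads with Trimmomatic 0.39, aligned them to GRCh38 with STAR and deposited raw counts per gene from featureCounts with default settings, which drop reads that align to several places or overlap several genes and do not use strand. The aligner's and counter's versions were not given in the sources used here, nor was the read length of each library. The study's methods name more than 1 read-length configuration without saying which library had which. Read length may therefore have differed between the states, and its part in the counts of genes with similar copies was not tested. Coordinates and gene types came from GENCODE 44, which held 44876 of the 44910 gene IDs. The fold changes here were computed from the deposited counts with edgeR 4.0.16 (R 4.3.3): genes passed filterByExpr, TMM factors scaled the 4 libraries, glmQLFit and glmQLFTest compared the states without covariates, and p-values were adjusted by Benjamini-Hochberg over all tested genes. The other human samples of the table entered 1 alternative only, a fit of all 10 human samples, and the deposited mouse table was not used here. Groups followed the sample titles. Depth was 12926595 to 38771193 reads a library. The replicates differed by more than sampling noise, with a chi-square per degree of freedom of 7.16 in naïve and 2.34 in primed H9 ESCs. Mouse windows were aligned with minimap2 2.31. DESeq2 1.42.0, other scalings, filters, the fit of all 10 human samples, thinning, a replicate block, no-window genes and leaving out each library were run as alternatives. The genes, 32 lists and 13 families were chosen with earlier results of these data known. Named were each list's key genes, up to 4 DETs of the largest change in each list and family where the higher state averaged 10 CPM or more, the 10 largest changes each way with over 3 reads in a library of the lower state, and the 10 genes of the highest mean in each state, of which the text gives a part. Some genes are not reported here.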

Additional observations from a re-analysis of the deposited data

How the results depend on the processing

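The 8701 DETs between the states, 4156 naïve-higher and 4545 primed-higher, became 5000, 2226 and 2774 when at least 10 reads were required in each of the 4 libraries, which removes genes that 1 state lacks and left 83 of 290 named genes untested. They became 3395, 1789 and 1606 when 5710 genes with no mouse window were fitted alone, and 14208, 7182 and 7026 at an adjusted p under 0.05 without the fold threshold. Leaving out each library in turn gave 8430 to 9276 DETs, 4243 to 4469 naïve-higher and 4121 to 4807 primed-higher, where the lone library of a state was assumed to vary like the other state. The numbers of replicates did not pair the samples (correlation of same-numbered deviations 0.064), and the fit with the replicate block gave 8666 DETs with the same call for all 290 named genes. Without the filter on low counts, the fit gave 11085 DETs, 5859 naïve-higher and 5226 primed-higher, and without the second primed library 4309 and 4121, so which state had more DETs turned in these 2 fits and in the fits of no-window genes and of adjusted p alone. The fit of all 10 human samples gave 8747 DETs. DESeq2 gave 8180 DETs, and protein-coding genes alone, an alternative chosen after seeing the data, 6680. In none of the alternatives was a DET called in the opposite direction. Of the named genes, KRT18, MT-CO1 and PDGFRA fell below a threshold in some alternative. The cause was not tested. The depth of the libraries limits the statement that a gene is absent to 3 reads a library.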
